A study of Oryza sativa with 12 samples.

Results

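NSHB1, NSHB2 and PDC1 are the rice genes for the haemoglobins NSHB1 and NSHB2 and for a pyruvate decarboxylase. They are 3 of the 17905 genes named on the array, and they were read by 5 probe sets, of which 3 belong to NSHB1 and 1 each to NSHB2 and PDC1. The probe sets were taken by gene symbol or synonym from the probe annotation. All 5 passed the filter on low signal. The genes were selected on measured values, with their signals on the root arrays of this series already known. Every comparison that involves a root group is therefore given for these genes as a description, with no test. Comparisons between leaf groups were tested. Their error was pooled over all 12 arrays, so the root arrays enter these tests through the error. Which root comparison led to the choice of PDC1 is not recorded.

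Nonsymbiotic haemoglobins, also called phytoglobins, are oxygen-binding haem proteins of plant cells that do not carry oxygen to nodules. They bind oxygen very tightly and, in their oxygenated form, turn nitric oxide into nitrate, and in many plants their genes are induced by low oxygen, nitrate or nitric oxide. Pyruvate decarboxylase opens ethanol fermentation by turning pyruvate into acetaldehyde, which alcohol dehydrogenase then reduces to ethanol. This route regenerates NAD+ for glycolysis when respiration lacks oxygen, and rice, which germinates and grows in flooded soil, relies on it. The labels name no low-oxygen treatment.

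The study compared the F1 hybrid of the rice cultivars C bao and Jamaica with both parents on 12 Affymetrix rice arrays, and its title links weak growth of the hybrid to stress responses. Leaf samples were taken at 4 weeks and root samples at 7 days in all 3 genotypes, so tissue and age cannot be told apart. The groups were F1 leaf, C bao leaf, Jamaica leaf, F1 root, C bao root and Jamaica root, with 2 arrays each. The labels give no treatment, no direction of the cross and no statement that replicates came from separate plants. Every p-value thus measures the spread between these arrays, which may be technical, and their number limits the precision. RNA came from whole leaf or root, so fewer cells that express a gene and less RNA per cell cannot be told apart.

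Values are signals made by the authors with MAS5, an Affymetrix summary on a linear scale, and were scaled so that each array has a trimmed mean of 500. Differences are of log2(signal + 16), which understates changes of low signals, and are given with the standard error (SE) from limma. This SE pools the replicate spread of all 6 groups, leaf and root, and is not the spread of the compared groups alone. A probe set was called at an adjusted p under 0.05 over 42974 probe sets. The filter corresponds to a group mean signal of about 32.2 in at least 1 group. Of the leaf markers, 5 of 6 lay higher on every leaf array than on any root array, and both root markers, the silicon transporter genes Lsi1 and Lsi2, lay higher on every root array. The exception was RBCS1, for a Rubisco small subunit, whose probe set had signals from 7.90 to 61.7 in leaf and from 1.60 to 37.4 in root.

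NSHB2 was lowest in the hybrid in root and highest in the hybrid in leaf. Its signals were 543 and 597 in F1 roots, 2431 and 3115 in C bao roots and 15963 and 14407 in Jamaica roots. The 3 genotypes did not overlap in root, with the hybrid lowest and Jamaica highest. In leaf NSHB2 gave 1466 and 1116 in F1 leaves, 456 and 624 in C bao leaves and 265 and 167 in Jamaica leaves. Here too no genotype overlapped with another, and the hybrid was the highest.

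Ranked by mean signal, NSHB2 stood highest in Jamaica roots (15185 ± 1100, SD, n = 2, as for each mean that follows), then in C bao roots (2773 ± 483), F1 leaves (1291 ± 247), F1 roots (570.0 ± 38.4), C bao leaves (540 ± 118) and Jamaica leaves (216 ± 68.9). Neighbours in this order were separated on every array, except that the arrays of F1 roots and C bao leaves overlapped. The hybrid had more NSHB2 signal in leaf than in root, with an F1 leaf mean 2.27 times that of F1 roots. In both parents the leaf mean was the lower one, at 0.195 times the root mean in C bao and 0.0142 times in Jamaica.

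**Figure D1:**
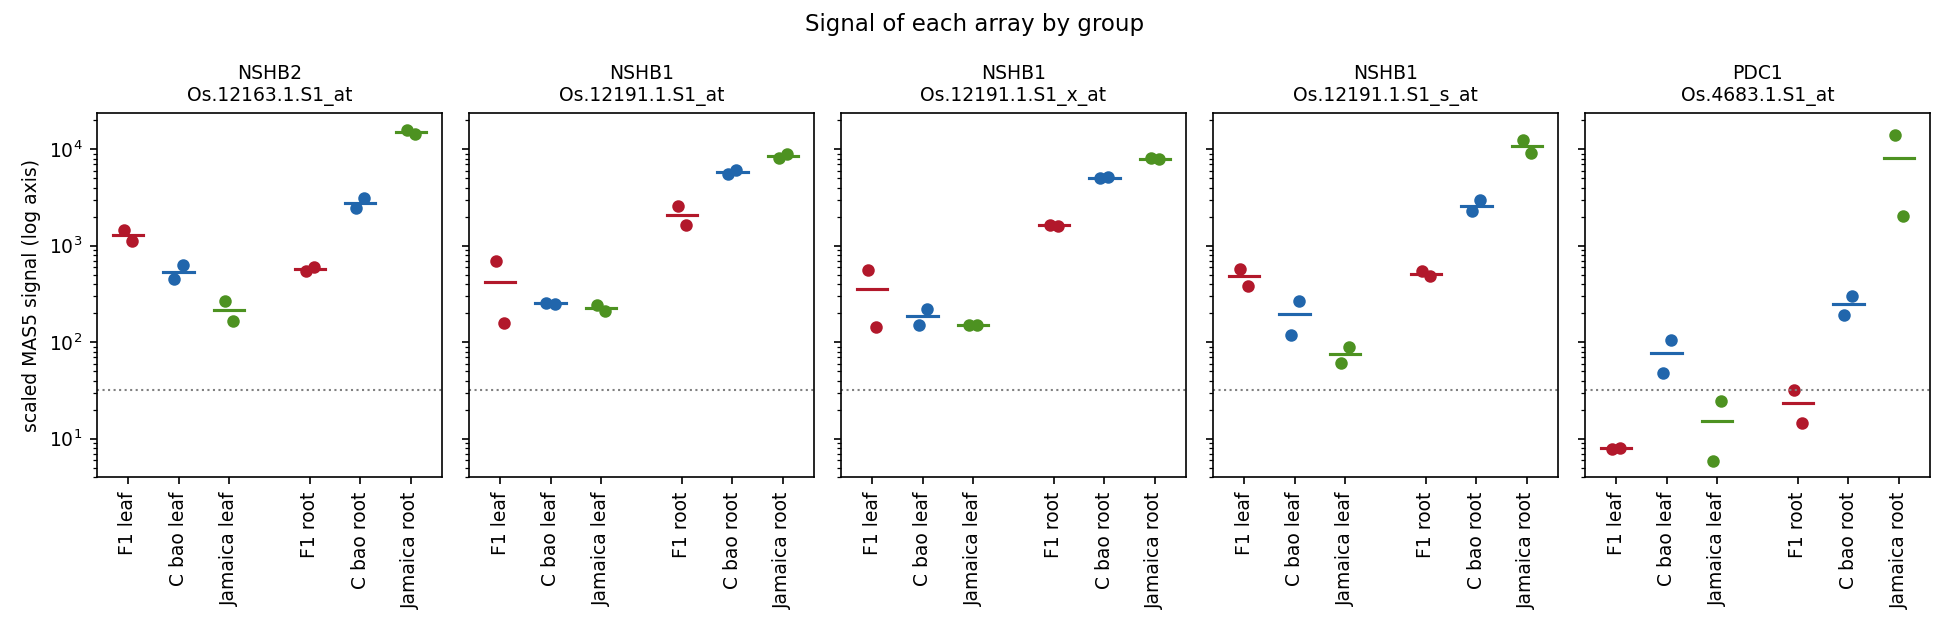
Signal of each array for the 5 probe sets, with a log axis of scaled MAS5 signal and the genotypes F1, C bao and Jamaica side by side in leaf and then in root. Points are arrays (2 a group), short lines are group means and the dotted line is the filter at a signal of 32.2. In root the F1 arrays lie below all parental arrays in every panel, while in leaf they lie above all parental arrays for NSHB2 and for the S1_s_at probe set of NSHB1.

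Tests were run in leaf, though they are not shown to be independent of the choice of the genes. In leaf NSHB2 rose in the hybrid. Its log2 difference from the mean of both parents was 1.88 (SE 0.220, limma adjusted p = 0.002576), and its F1 arrays were above each of the 4 parental arrays. Of all probe sets, 0.982% were called higher in this comparison and 0.233% lower, and 6.15% had their F1 leaf arrays above every parental one. Against Jamaica leaves alone the rise was 2.51 (SE 0.254, limma adjusted p = 0.0003046), in a comparison with 3.34% of probe sets called higher and 1.88% lower. Against C bao leaves alone it was 1.24 (SE 0.254, limma adjusted p = 0.04798), with 0.889% called higher and 0.263% lower. That call stands close to the threshold and was lost in 13 of 20 alternative settings, with adjusted p-values from 0.02671 to 0.3937.

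The parents differed in leaf as well. NSHB2 was higher in C bao leaves than in Jamaica leaves by 1.28 (SE 0.254, limma adjusted p = 0.01007), in a comparison where 7.46% of probe sets were called higher in C bao and 4.39% lower. Without C bao leaf replicate 2 this difference was 1.06 and missed the threshold (limma adjusted p = 0.08003). When the leaf arrays were fitted without the root arrays, NSHB2 no longer passed for the hybrid against the parental mean (limma adjusted p = 0.1061), for C bao against Jamaica (limma adjusted p = 0.1048) or for the hybrid against C bao. The rise over Jamaica leaves was called in all 20 alternative settings, this one included, with adjusted p-values up to 0.0264.

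In root, NSHB2 was lower in the hybrid, with a log2 difference of −3.47 from the mean of both parents (SE 0.220), a value that belongs to the choice of the gene and is not tested. Set against each parent, F1 roots had a mean signal of 0.205 times that of C bao roots and 0.0375 times that of Jamaica roots. C bao roots in turn were below Jamaica roots, with a log2 difference of −2.46 (SE 0.254).

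NSHB1 was read by 3 probe sets that differ by the suffix of their name. In Affymetrix naming, _s_at marks probes shared between transcripts and _x_at marks a set in which some probes also match other sequences. The probe set with the highest mean, here the S1_at set, stands for the gene here. Its signals were 2571 and 1621 in F1 roots, 5565 and 6024 in C bao roots and 8135 and 8908 in Jamaica roots. The genotypes did not overlap in root and had the same order as for NSHB2, with the hybrid lowest. By mean signal the order was Jamaica roots (8522 ± 546), C bao roots (5795 ± 325), F1 roots (2096 ± 672), F1 leaves (424 ± 378), C bao leaves (254 ± 5.09) and Jamaica leaves (227 ± 23.2), and the F1 leaf arrays overlapped with those of C bao leaves.

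In leaf this set gave 691 and 157 in F1, against 257 and 250 in C bao leaves and 244 and 211 in Jamaica leaves. The F1 leaf arrays lay on either side of all 4 parental leaf arrays, and 4.42% of probe sets had a wider gap between the F1 leaf replicates. Its difference from the parental mean in leaf was 0.45 (SE 0.425, limma adjusted p = 0.7183). Without F1 leaf replicate 1 that value was −0.56, and without F1 leaf replicate 2 it was 1.47 (limma adjusted p = 0.008333), so the sign depended on which F1 leaf array was used.

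The F1 leaf pair also differed in marker genes. Signals of 19 dividing-cell genes summed to 15921 in F1 leaf replicate 1 and to 3445 in replicate 2, against 13553 and 17606 in C bao leaves and 4830 and 5085 in Jamaica leaves. Those of 7 dehydration genes summed to 1714 in F1 leaf replicate 1 and to 47680 in replicate 2, against 744 to 3030 in the parental leaves. The part of these genes' cells or states in the NSHB1 and NSHB2 leaf values was not tested. NSHB2 differed between the same arrays by less than the median probe set did, 0.39 against 0.50 on the log2 scale.

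The S1_x_at set of NSHB1 followed the S1_at set closely. It had 1650 and 1614 in F1 roots, 5054 and 5117 in C bao roots and 8077 and 7866 in Jamaica roots. In leaf it had 563 and 143 in F1, against 149.98 and 221 in C bao leaves and 149 and 151 in Jamaica leaves, and its leaf difference from the parental mean was 0.74 (SE 0.390, limma adjusted p = 0.4765). Here too the F1 leaf arrays lay on either side of the parental arrays.

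The remaining probe set of NSHB1, the S1_s_at set, had the pattern of NSHB2. It had 545 and 481 in F1 roots, 2267 and 2945 in C bao roots and 12503 and 9095 in Jamaica roots. In leaf it had 579 and 381 in F1, against 120 and 268 in C bao leaves and 61.3 and 89.4 in Jamaica leaves. In each tissue no genotype overlapped with another, and F1 leaves and F1 roots overlapped.

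For this probe set the F1 leaf signal rose by 1.87 over the parental mean (SE 0.307, limma adjusted p = 0.01607) and by 2.43 over Jamaica (SE 0.355, limma adjusted p = 0.00339). Both calls were lost when leaf was fitted alone, at limma adjusted p = 0.2772 and 0.102. Over C bao the difference of 1.31 did not pass (SE 0.355, limma adjusted p = 0.1535), nor did that of 1.12 between C bao and Jamaica leaves (SE 0.355, limma adjusted p = 0.06691). Of the 3 probe sets of NSHB1, 1 thus passed as higher in F1 leaves, and the gene's leaf result depended on the probe set.

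In root the probe sets of NSHB1 agreed in direction and not in size. Against the parental mean, the F1 difference was −1.77 (SE 0.425) for the S1_at set, −1.95 (SE 0.390) for the S1_x_at set and −3.32 (SE 0.307) for the S1_s_at set. C bao minus Jamaica gave −0.55 (SE 0.491), −0.65 (SE 0.450) and −2.04 (SE 0.355) in the same order. The cause of this disagreement was not tested. These SEs are pooled over all groups. For the S1_at set the replicate gap was 2.03 in F1 leaves, against 0.114 in C bao roots and 0.131 in Jamaica roots. For the S1_x_at set it was 1.87 in F1 leaves, against 0.018 in C bao roots and 0.038 in Jamaica roots.

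The rice haemoglobin family holds further genes. NSHB3 and NSHB4, which are neighbours of NSHB1 in the RefSeq annotation of assembly ASM3414082v1, have no probe set in the annotation used here, and NSHB2 lies on the same chromosome with 50 genes between it and NSHB1. Whether signal of the NSHB1 or NSHB2 probe sets includes transcripts of NSHB3 or NSHB4 was not tested. Nor was it tested whether the S1_s_at set of NSHB1 also reads NSHB2 transcripts.

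PDC1 had low signals outside the parental roots. It had 32.0 and 14.6 in F1 roots, 191 and 303 in C bao roots and 14075 and 2022 in Jamaica roots. Both F1 root arrays were below all parental root arrays, and both C bao root arrays were below both Jamaica root arrays. In leaf it had 7.90 and 8.0 in F1, against 47.7 and 106 in C bao leaves and 5.90 and 24.4 in Jamaica leaves. The group means of F1 leaf, Jamaica leaf and F1 root lay below the filter's level, so PDC1 passed the filter through its other groups. By mean signal the order was Jamaica roots (8048 ± 8523), C bao roots (247 ± 79.3), C bao leaves (76.7 ± 41.0), F1 roots (23.3 ± 12.3), Jamaica leaves (15.1 ± 13.1) and F1 leaves (7.95 ± 0.0706). Jamaica leaves overlapped with both F1 roots and F1 leaves, and the other neighbours in this order were separated.

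The Jamaica root replicates of PDC1 stood far apart, by 2.79 on the log2 scale. Of all probe sets, 25 (0.0582%) had a wider gap between those arrays, and the median gap was 0.293. The F1 root difference from the parental mean was −4.94 (SE 0.657). It was −5.63 without Jamaica root replicate 2 and −4.24 without Jamaica root replicate 1. C bao minus Jamaica in root was −4.38 (SE 0.759), and −5.78 and −2.99 without the same arrays in the same order. The lower of the Jamaica root arrays thus still had more than the C bao roots.

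In leaf no comparison of PDC1 passed. The F1 difference from the parental mean was −1.10 (SE 0.657, limma adjusted p = 0.5361), opposite in sign to that of NSHB2. C bao minus Jamaica was 1.57 (SE 0.759, limma adjusted p = 0.2169), although both C bao leaf arrays lay above both Jamaica leaf arrays. Both SEs are pooled over leaf and root groups, so the wide replicate gap of the Jamaica roots enters these leaf tests. That gap was 2.79, against 0.934 for C bao leaves, 0.883 for Jamaica leaves and 0.006 for F1 leaves. When leaf was fitted alone, the difference of 1.57 still did not pass (limma adjusted p = 0.1709).

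Counted over the 5 probe sets, the F1 root arrays lay below all 4 parental root arrays for 5, where this was so for 11.1% of all probe sets. C bao roots lay below Jamaica roots for 5, against 27.5% of all probe sets. These root counts describe how the genes were chosen. As 3 of the 5 probe sets read NSHB1, counts over probe sets are not counts of separate genes. In leaf, C bao lay above Jamaica for 4 of 5 probe sets, the S1_x_at set being the exception, against 28.1% of all.

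Directions in leaf and root were opposite for several of the probe sets. C bao was below Jamaica in root and above it in leaf, with no overlap in either tissue, for 4 of 5 probe sets, against 6.91% of all probe sets. Of these leaf differences only that of NSHB2 passed. For the S1_at set it was 0.15 (limma adjusted p = 0.8826), and quantile scaling reversed it (−0.2234). F1 was below all parental arrays in root and above all of them in leaf for 2 of 5, against 0.554% of all. These were NSHB2 and the S1_s_at set of NSHB1, with r = 0.9661 between them. Whether they read the same transcripts was not tested. Subtracting the F1 root difference from the F1 leaf difference gave 5.35 (SE 0.311) for NSHB2 and 5.19 (SE 0.435) for the S1_s_at set. It was 2.23 (SE 0.602) for the S1_at set, 2.69 (SE 0.551) for the S1_x_at set and 3.84 (SE 0.930) for PDC1. All 5 values contain the root arrays on which the genes were chosen, and none was tested.

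**Figure D2:**
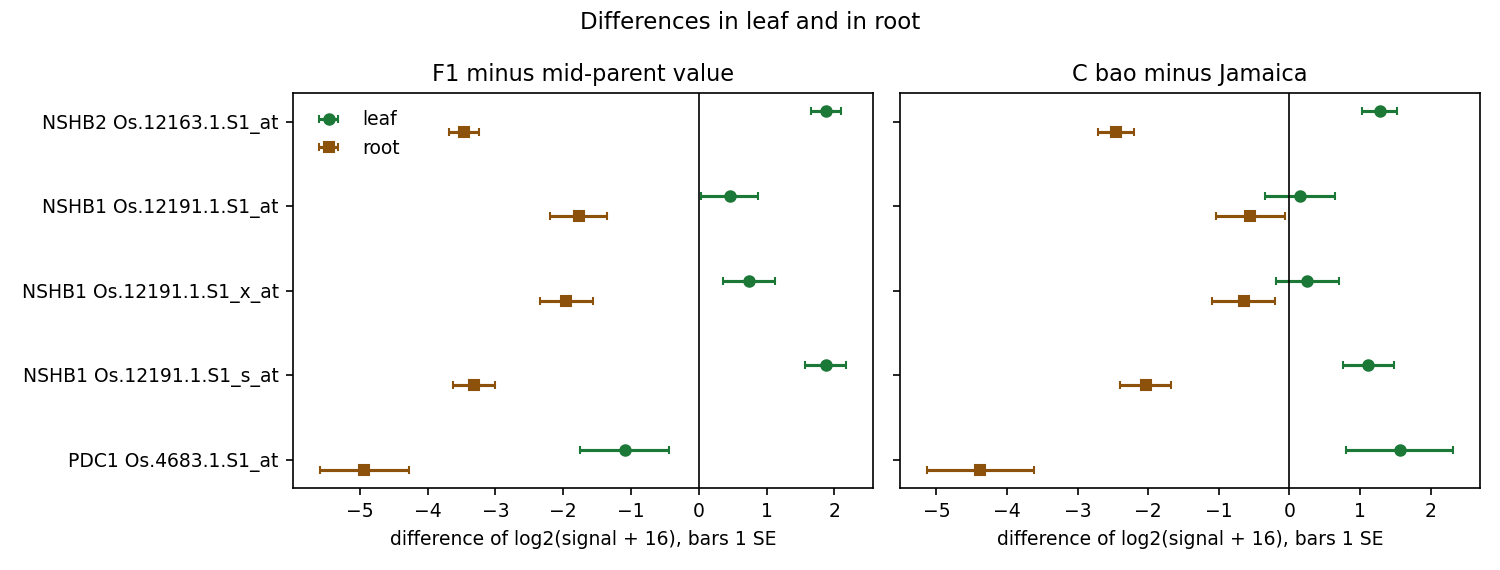
Difference of log2(signal + 16) for each probe set, in leaf (circles) and in root (squares), for F1 minus the parental mean on the left and C bao minus Jamaica on the right, with bars of 1 SE from limma. NSHB2 lies at 1.88 in leaf and −3.47 in root for F1 and at 1.28 and −2.46 for the cultivars, and all root values of the 5 probe sets are below 0.

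The marker genes of other cells and states were summed on the root arrays. By these sums F1 roots stood apart from both parents in the dehydration genes and the root markers. The summed signal of the 7 dehydration genes was 127130 and 139640 on the F1 root arrays, against 1759 and 2836 in C bao roots and 810 and 1574 in Jamaica roots. The summed signal of the 6 leaf markers was 3610 and 6921 in F1 roots, 13827 and 17105 in C bao roots and 6085 and 5579 in Jamaica roots, where F1 and Jamaica overlapped. The 19 genes of dividing cells gave overlapping sums. These were 25804 and 25111 in F1 roots, 24377 and 20431 in C bao roots and 21050 and 26457 in Jamaica roots. Their mean log2 signal did not overlap, at 9.984 and 9.932 in F1 roots. It was lower in C bao roots (9.705 and 9.399) and in Jamaica roots (9.539 and 9.916). The root markers Lsi1 and Lsi2 together gave 18479 and 22869 in F1 roots, 31040 and 35206 in C bao roots and 48429 and 44752 in Jamaica roots, the same order of genotypes as for the haemoglobin genes. The part of these in the haemoglobin and PDC1 values was not tested.

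The median F1 minus parental difference of all probe sets in root was 0.12 with the authors' scaling and −0.13 after median centring. The root differences of the 5 probe sets, which ranged from −1.77 to −4.94, kept their sign under all 21 alternative settings.

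Leaf and root were compared in the parents. The leaf minus root difference averaged over C bao and Jamaica was −4.20 (SE 0.179) for NSHB2, −4.78 (SE 0.347) for the S1_at set, −5.14 (SE 0.318) for the S1_x_at set, −5.31 (SE 0.251) for the S1_s_at set and −4.52 (SE 0.537) for PDC1. In this comparison 20.9% of all probe sets were called higher in leaf and 21% lower. In the hybrid the tissue difference was narrower for the haemoglobin genes, and that of NSHB2 had the opposite sign. For the S1_at set the F1 leaf mean was 0.202 times the F1 root mean. The same ratio was 0.0438 in C bao and 0.0267 in Jamaica. The F1 leaf arrays of this set stood apart, at 691 and 157. PDC1 also had a narrower log2 difference, −0.68 in F1, −1.55 in C bao and −7.49 in Jamaica. Both of its F1 group means lay below the filter's level.

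The probe sets were also set against each other over the 12 arrays. Pearson's r between NSHB2 and the S1_s_at set of NSHB1 was 0.9661 over all 12 arrays and 0.9956 over the 6 root arrays. With the S1_at set, NSHB2 gave 0.7962 and 0.9306. PDC1 gave 0.8641 and 0.9615 with NSHB2 and 0.7352 and 0.8705 with the S1_at set. The arrays fall into 6 groups of tissue and genotype and every probe set was read on the same arrays, so these values are descriptions.

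**Figure D3:**
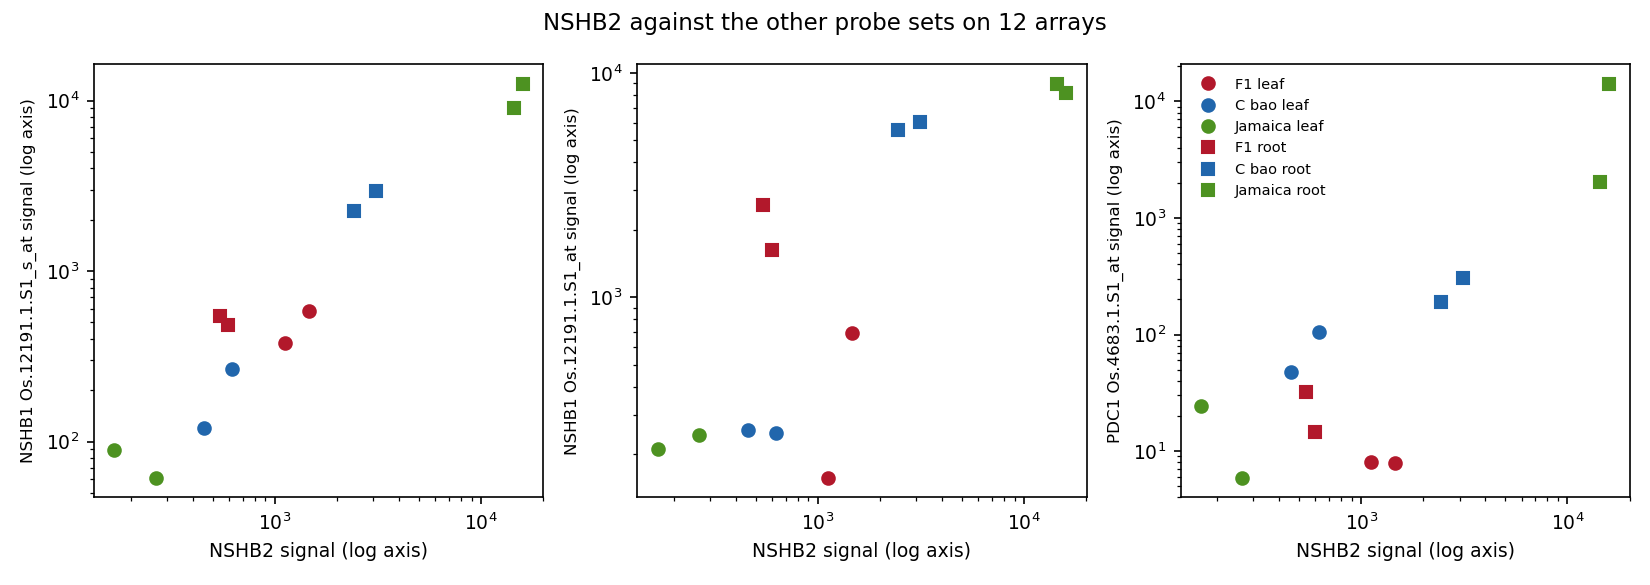
Signal of NSHB2 on each of the 12 arrays (horizontal log axis) against the S1_s_at set and the S1_at set of NSHB1 and against PDC1 (vertical log axes), with leaf arrays as circles and root arrays as squares. The points of the S1_s_at set lie near 1 line (r = 0.9661), and those of PDC1 are more scattered (r = 0.8641).

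Among 2398 genes with an informative name, the pattern closest to NSHB2 over 12 arrays was that of NSHB1 by its S1_s_at set (r = 0.9661). Whether that set also reads NSHB2 transcripts was not tested. Then came SAT4 (r = 0.9198), whose mean signal was 764 in F1 leaves, 740 in C bao leaves and 442 in Jamaica leaves, and 1334 in F1 roots, 2014 in C bao roots and 4924 in Jamaica roots. LAC19 followed (r = 0.905), with mean signals of 31.7 in F1 roots, 71.2 in C bao roots and 1685 in Jamaica roots. Both genes lay closer to NSHB2 than the S1_at and S1_x_at sets of NSHB1, which gave r = 0.7962 and 0.8204. Over the 6 root arrays alone, the S1_s_at set of NSHB1 was followed by APR-like1 (r = 0.9944) and OPR-1 (r = 0.9924). OPR-1 had 6739 in F1 roots, 13370 in C bao roots and 25200 in Jamaica roots.

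For NSHB1 the nearest patterns over 12 arrays were those of CYP714D1 (r = 0.9826), GINT1 (r = 0.9812) and FP (r = 0.9759). CYP714D1, a cytochrome P450 that inactivates gibberellins in rice, had mean signals of 575 in F1 roots, 1086 in C bao roots and 1707 in Jamaica roots, and 124 to 138 in the leaf groups. By Spearman's rho, PDC2 and GINT1 were nearest with the same value (rho = 0.972), followed by CML7 (rho = 0.965). PDC2 is a gene for pyruvate decarboxylase of the same family as PDC1 and was not among those nearest by Pearson's r. Over the 6 root arrays the nearest to NSHB1 were GME-2, Ip and EXP31. By rho, NSHB2 was nearest to the S1_s_at set of NSHB1, OsPP2C28 and PP2A2, and PDC1 to OsPht1;4, CKX3 and MT2B. For PDC1 the nearest were MADS25 (r = 0.9093), OsPht1;4 (r = 0.9066) and ARD1 (r = 0.9026) over 12 arrays, and SAT4 (r = 0.9933) over the 6 root arrays. ARD1, for a dioxygenase of the methionine salvage pathway, had 1121 in F1 roots, 2063 in C bao roots and 5268 in Jamaica roots.

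The other genes of low-oxygen metabolism were taken by name: 33 genes of haemoglobins, fermentation, sucrose and starch use, submergence signalling, nitrate uptake and alternative respiration. Of these, 26 had a probe set and 25 passed the filter. The submergence list held SLR1, SLRL1 and EREBP1 alone. The names SUB1A, SUB1B, SUB1C, ERF66 and ERF67 matched no gene. SK1 and SK2 matched only shikimate kinase genes, which were removed. A list of alanine and GABA metabolism matched 0 genes. The lists were chosen with earlier results of these data known, so their p-values and counts may not be independent of that choice. In F1 roots 2 of the 25 rose, 2 fell and 21 did not pass, with a median difference of −0.29 against 0.12 over all probe sets, of which 3.37% were called higher and 1.69% lower. The F1 root arrays lay below all parental root arrays for 11 of the 25, against 11.1% of all probe sets.

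Fermentation genes of the list did not pass in F1 roots. Adh2, for alcohol dehydrogenase, had 10462 and 11568 in F1 roots, 19836 and 23811 in C bao roots and 22361 and 20600 in Jamaica roots, with both F1 arrays below all parental arrays. Its difference of −0.97 from the parental mean did not pass (SE 0.472, limma adjusted p = 0.308). PDC2, judged on its S2_at set, had 8251 and 8017 in F1 roots, 9293 and 8469 in C bao roots and 11828 and 10957 in Jamaica roots, a difference of −0.30 (SE 0.247, limma adjusted p = 0.569). Its other probe set gave −0.28. ADH1 had no probe set in the annotation, and PDC3 did not pass the filter.

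The genes that passed in F1 roots went both ways. OsSUS4, for a sucrose synthase, which splits sucrose for glycolysis, had 4876 and 3880 in F1 roots, 147 and 192 in C bao roots and 565 and 393 in Jamaica roots. It rose by 3.86 (SE 0.251, limma adjusted p = 3.02e-05). OsTPP7, a trehalose-6-phosphate phosphatase tied in rice to germination under water, had 1282 and 1922 in F1 roots, 345 and 313 in C bao roots and 445 and 729 in Jamaica roots, a rise of 1.82 (SE 0.262, limma adjusted p = 0.00256) that missed the threshold without F1 root replicate 2 (1.531, limma adjusted p = 0.06224). Its other probe set gave 0.62 and did not pass (limma adjusted p = 0.516).

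OsPPDKB, for pyruvate orthophosphate dikinase, which interconverts pyruvate and phosphoenolpyruvate, fell by 1.87 in F1 roots (SE 0.202, limma adjusted p = 0.000523). It had 2061 and 2021 in F1 roots, 10026 and 10179 in C bao roots and 5775 and 5352 in Jamaica roots. NRT2.3, for a nitrate transporter, had 445 and 349 in F1 roots, 4340 and 5094 in C bao roots and 2343 and 3798 in Jamaica roots, and fell by 3.20 (SE 0.354, limma adjusted p = 0.000578). Unlike the haemoglobin genes and PDC1, both had higher mean signals in C bao roots than in Jamaica roots, a difference that did not pass for either gene.

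In F1 leaves 0 of the 25 genes passed in limma, with 5342 of all 42974 probe sets at unadjusted p under 0.05 and 522 called. The median difference of the list was 0.09, against −0.02 over all probe sets. The F1 leaf arrays exceeded every parental leaf array for 2 of the 25, OSK1, for a catalytic subunit of the kinase SnRK1, and OsTPP7, which is near the 6.15% of all probe sets. The other probe set of OSK1 had the opposite sign, at −0.46 against 0.33, and neither passed. OsTPP7 had 3425 and 2410 in F1 leaves, 869 and 1139 in C bao leaves and 1295 and 1768 in Jamaica leaves, and its difference of 1.22 did not pass (SE 0.262, limma adjusted p = 0.0596). Being below all parental arrays in root and above all in leaf, as NSHB2 was, was seen for 0 of the 25, and for 0.554% of all probe sets.

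Between the parents in leaf, 4 of the 25 genes were higher in C bao, 0 were lower and 21 did not pass, beside 7.46% of all probe sets called higher and 4.39% lower. OsSUS1, also for a sucrose synthase, had 20207 and 20452 in C bao leaves and 470 and 1810 in Jamaica leaves, a difference of 4.43 (SE 0.693, limma adjusted p = 0.00276). OsSUS6 (2.79, SE 0.467), Adh2 (2.004, SE 0.545) and OsSUS5 (1.62, SE 0.336) were the others. Adh2 had 608 and 806 in C bao leaves and 159 and 166 in Jamaica leaves, and its call was lost in 13 of 20 alternative settings. The call of OsSUS5 was lost in 3 and those of OsSUS1 and OsSUS6 in 1 each, and when leaf was fitted alone none of the 4 genes passed (limma adjusted p from 0.05844 to 0.1868). The other probe set of OsSUS6 gave 0.54 and did not pass (limma adjusted p = 0.563).

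The dividing-cell genes differed the same way between these leaves, with sums of 13553 and 17606 in C bao leaves, against 4830 and 5085 in Jamaica leaves, and their part in the leaf differences of Adh2, NSHB2 and the sucrose synthase genes was not tested.

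Between the parents in root, 0 of the 25 genes were higher in C bao, 1 was lower (OsSUS4, −1.40, SE 0.289, limma adjusted p = 0.0182) and 24 did not pass. The call of OsSUS4 was lost without C bao root replicate 1, without C bao root replicate 2 and without Jamaica root replicate 1, with limma adjusted p from 0.06455 to 0.1808. Of all probe sets 2.39% were called higher in C bao roots and 2.31% lower. C bao roots lay below Jamaica roots for 6 of the 25 genes, against 27.5% of all probe sets, and C bao leaves above Jamaica leaves for 10, against 28.1%. Both together held for PDC2 and SLR1, a repressor of gibberellin signalling, that is for 2 of the 25, against 6.91% of all, so the first and the last of these counts lay near the shares over all probe sets. The C bao minus Jamaica difference in root was 0.02 (SE 0.545) for Adh2, beside −4.38 (SE 0.759) for PDC1.

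The cultivar difference changed between leaf and root for 1 of the 25 genes, OsSUS1 (4.58, SE 0.981, limma adjusted p = 0.0357), against 1.69% of all probe sets called higher and 1.43% lower. That call was lost in 10 of 19 alternative settings. The same leaf minus root value, untested, was 3.73 (SE 0.359) for NSHB2, 0.71 (SE 0.695) for the S1_at set and 5.95 (SE 1.07) for PDC1.

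**Figure D4:**
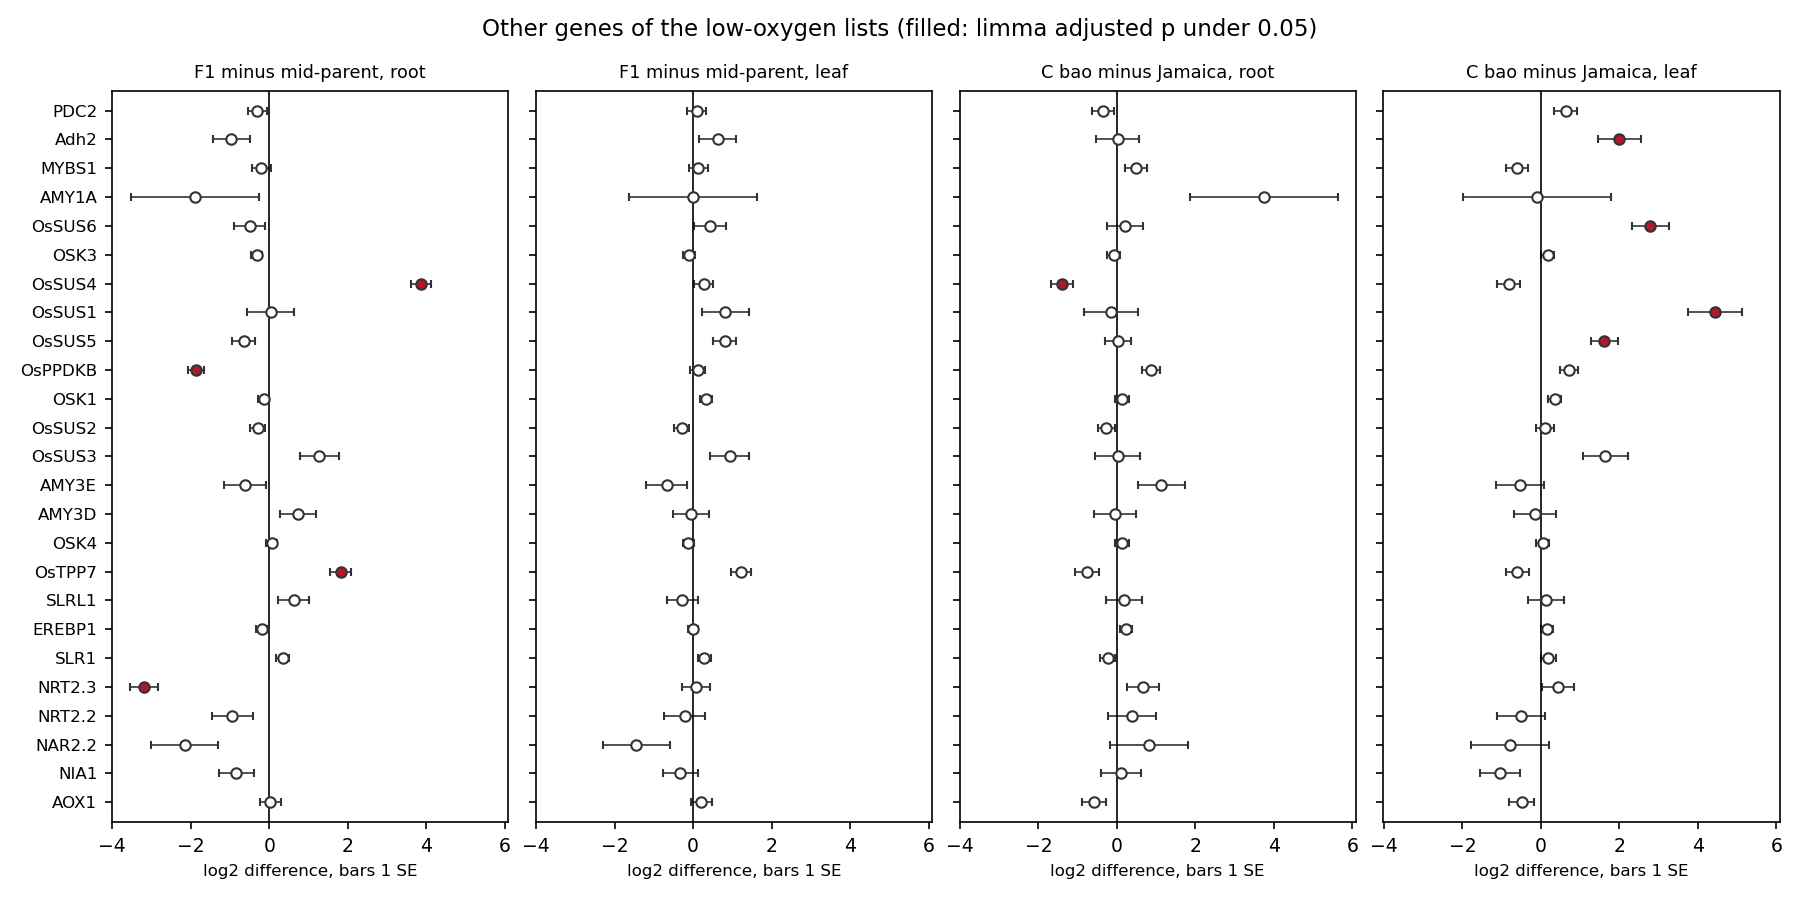
Difference of log2(signal + 16) of the 25 other low-oxygen genes in 4 comparisons on 1 common axis, with bars of 1 SE from limma and filled points for an adjusted p under 0.05. In F1 roots OsSUS4 and OsTPP7 are filled to the right and OsPPDKB and NRT2.3 to the left, in F1 leaves no point is filled, and in the C bao minus Jamaica leaf panel the 4 filled points, Adh2, OsSUS6, OsSUS1 and OsSUS5, lie to the right.

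Between leaf and root of the parents, 6 of the 25 genes were higher in leaf, 12 were lower and 7 did not pass, beside 20.9% of all probe sets called higher, a share near that of the list, and 21% lower. The median was −0.62, against 0.03 over all probe sets. Adh2 was lower in leaf, with a difference of −5.92 (SE 0.385, limma adjusted p = 4.47e-07) and so was NRT2.3, with −6.33 (SE 0.289, limma adjusted p = 3.53e-08). PDC2 had −1.16 (SE 0.202, limma adjusted p = 0.000803). AOX1, for the alternative oxidase of mitochondria, had −1.02 (SE 0.220, limma adjusted p = 0.00321). MYBS1, a transcription factor of sugar-starved amylase genes, was higher in leaf by 3.58 (SE 0.200, limma adjusted p = 1.38e-07), OsSUS4 by 3.13 and NIA1, for nitrate reductase, by 1.79 (SE 0.363, limma adjusted p = 0.00222). Also lower in leaf were NRT2.2 (−4.01), OsPPDKB (−2.63), OsSUS1 (−1.52), OSK3 (−1.35), OsSUS6 (−0.97), OsSUS2 (−0.85), OSK1 (−0.75) and OSK4 (−0.62), and higher were AMY3D (1.67), an amylase gene, OsTPP7 (1.47) and SLR1 (0.60). The calls of OsSUS1 and OsSUS6 were lost in 8 and 10 of 19 alternative settings. The other probe sets of OsSUS6 (0.47) and OsTPP7 (−0.51) had the opposite sign and did not pass. The leaf-root order of NSHB1, NSHB2 and PDC1 in the parents was that of Adh2 and PDC2.

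The further genes of the lists gave no call in the F1 or cultivar comparisons. OsSUS2, for a further sucrose synthase, had 15699 and 17685 in F1 roots, 18581 and 18545 in C bao roots and 22610 and 22154 in Jamaica roots, and its F1 difference of −0.29 did not pass (SE 0.188, limma adjusted p = 0.462). EREBP1, for an ethylene response factor, had signals from 7768 to 10761 on the 12 arrays. SLRL1, a relative of SLR1, had 142 and 226 in F1 roots against 65.6 to 157 in the parental roots. NAR2.2, for a partner protein of nitrate transporters, had 19.2 and 102 in F1 roots, 257 and 514 in C bao roots and 230 and 175 in Jamaica roots, and its difference of −2.15 did not pass (SE 0.856, limma adjusted p = 0.209). The amylase gene AMY1A had 6141 and 1.90 on the C bao root arrays and 0.6 to 19.3 on the other arrays. Neither AMY3E nor OsSUS3 exceeded a signal of 117 on any array.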

How the data were processed

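RNA was purified with an RNeasy kit and labelled by the one-cycle method of Affymetrix, per the labels' protocols. The deposited values are intensity signals on a linear scale, made by the authors with MAS5 per the submitters' processing notes. They lie between 0.1 and 57846, and each array's mean after trimming a share of 0.02 at each end is between 500.06 and 500.08. Software version, detection calls, scan dates and probe-level data were not used here.

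The 57381 probe sets include 123 controls, which were removed. Each array was scaled to 500 by this trimmed mean and put on the scale of log2(signal + 16). Probe sets stayed in the analysis when the group mean exceeded the mean of the arrays' 40th percentiles (5.59, a signal of 32.2) in at least 1 of 6 groups, which left 42974 (75.05%). limma 3.58.1 in R 4.3.3 fitted 6 group means to all 12 arrays, moderated by eBayes with its trend option (residual degrees of freedom 6, prior 4.58). The adjustment of p-values was Benjamini-Hochberg within each comparison, and every adjusted p given is from limma. The parental mean is that of the C bao and Jamaica log2 means. Python 3.11.15 served for tables and plots, and the fit was tested on simulated data.

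Probe sets were named from the array annotation, in which 22436 probe sets had 1 gene, 95 several and 34727 none, and all 17905 genes were matched to RefSeq symbols and synonyms. The members and lists were chosen with earlier results of these data known. A gene with several probe sets was judged on that of highest mean log2 signal. Every probe set of NSHB1, NSHB2 and PDC1 was described, and of the low-oxygen lists every gene called in a comparison and up to 3 more per list were named. Genes that a shared synonym brought into a list by mistake, such as homeobox genes, were removed. Patterns alike were ranked by Pearson's r over log2 values.

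Replicate numbers did not pair arrays across groups (correlation of deviations from −0.168 to 0.0779), so the model given here has no block. The settings varied were scaling (quantile or median centring), pseudocount (1 or 64), filter (none or the 60th percentile), each tissue alone, a linear parental mean, a replicate block, other probe sets of a gene, Spearman's rho and leaving out each array. Applying them to F1 leaves against each parent was added after the data were seen.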

Additional observations from a re-analysis of the deposited data

Results flagged for a closer look

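For several probe sets the arrays moved in opposite directions in leaf and root, with every array of a group on 1 side of the other group's arrays in each tissue. For C bao minus Jamaica, the leaf minus root difference on the log2 scale was 3.733 for NSHB2, 0.7059 for the S1_at set and 3.159 for the S1_s_at set of NSHB1, and 5.947 for PDC1. For F1 minus the parental mean, the same difference was 5.345 for NSHB2 and 5.188 for the S1_s_at set of NSHB1. The difference was not tested for any of them, since the root arrays took part in the choice of the genes. Within leaf, C bao minus Jamaica passed for NSHB2 alone. For the S1_at set it was 0.1511 (limma adjusted p = 0.8826), and quantile scaling reversed it. Leaf and root also differ in age, and what the opposite directions rest on was not tested.

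No group held enough arrays for a check of single arrays against the rest of their group.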

How the results depend on the processing

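Fitting each tissue alone moved the number of probe sets called to 5099 for F1 minus the parental mean in root (2174 with all arrays), 42 in leaf (522), 4159 for C bao minus Jamaica in root (2019) and 1159 in leaf (5095). The low-oxygen genes called became 5 lower in F1 roots, 1 higher in C bao roots and 0 higher in C bao leaves, and NSHB2 in leaf lost its calls for F1 (1.876, adjusted p = 0.1061) and for C bao minus Jamaica (1.278, adjusted p = 0.1048), while the S1_s_at set of NSHB1 in F1 leaves was at adjusted p = 0.2772. Median centring gave 1 low-oxygen gene called higher in F1 leaves and an F1 root value of −3.717 for NSHB2, and split the F1 root calls into 1031 higher and 2114 lower, against 1449 and 725. With the replicate block, 0 low-oxygen genes were called for the cultivar difference between leaf and root (1 without it). The arrays share only a replicate number, so the block is no pairing, and no call of NSHB1, NSHB2 or PDC1 against the parental mean or between cultivars in leaf changed with it.

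For the S1_at set of NSHB1, quantile scaling reversed the C bao minus Jamaica leaf value (−0.2234) and gave 0.3965 for its leaf minus root difference, and a pseudocount of 64 gave −4.542 for leaf minus root in the parents. Quantile scaling also reversed the leaf value of the S1_x_at set (−0.1249) and gave NSHB2 3.409 for the leaf minus root cultivar difference. The S1_s_at set in place of the S1_at set gave −3.319 in F1 roots, 1.869 in F1 leaves (called), −2.038 for the cultivars in root, −5.307 for leaf minus root and 3.16 for the cultivar difference between tissues. The S1_x_at set gave −0.6467, −5.137 and 0.9036 for the last 3 of these. A linear parental mean gave −3.94 for NSHB2 and −6.727 for PDC1 in F1 roots.

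Leaving out 1 array at a time gave 539 to 3378 calls for F1 roots, 224 to 2231 for F1 leaves, 996 to 2753 and 1537 to 8103 for C bao minus Jamaica in root and leaf, and 286 to 4698 for the cultivar difference between tissues. Low-oxygen genes called ranged from 1 to 2 higher and 2 to 4 lower in F1 roots, 0 to 2 each way in F1 leaves, 0 to 1 each way between the cultivars in root, 2 to 6 higher and 0 to 1 lower in leaf, and 0 to 5 higher and 0 to 1 lower for their difference. The S1_at set ranged from −2.104 to −1.444 in F1 roots, from −0.5613 to 1.467 in F1 leaves and from 0.6086 to 0.8033 for the cultivar difference between tissues. In F1 leaves the S1_x_at set was at −0.1924 without F1 replicate 1 and 1.674 without replicate 2. NSHB2 ranged from 0.97 to 1.585 for C bao minus Jamaica in leaf and from 3.425 to 4.041 for its difference between tissues, and PDC1 from 4.552 to 7.342 for the same difference. The F1 leaf rise of NSHB2 was called in 19 of 20 alternatives with a test, and ranged from 1.682 to 2.07. The causes were not tested. Low signal limits PDC1, whose mean lay below the filter's level in 3 groups.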
